A study of Mus musculus with 8 samples.

Results

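The genes described here encode the machinery of transmitter release: synaptotagmins, complexins, synapsins, vesicle-associated membrane proteins, syntaxins and their binding proteins, SNAP-25, SV2 proteins, Rab3 GTPases and RIM proteins. They were taken by symbol, as every probeset listed under a single gene symbol of these families, without use of any measured value. This gave 63 probesets of 62 genes, Stxbp4 being measured by a pair of them, out of 35512 probesets on the array, of which 21789 carried a single symbol. Vamp2 shared its probeset with another symbol and was not among the members. RNA came from EGFP-positive, propidium iodide-negative cells sorted from the substantia nigra pars compacta (SNc) or the ventral tegmental area (VTA) of newborn C57Bl/6 mice aged P1 to P4. The wild-type mice were Pitx3+/+;Th-EGFP+/- and the knockout mice Pitx3-/-;Th-EGFP+/-, so that each of the 4 groups (SNc and VTA, each WT and KO) carried the Th-EGFP reporter, whose Th regulatory sequence labels catecholaminergic cells. Each group had 2 arrays (Affymetrix Mouse Gene 1.0 ST), and each array pooled stored batches of sorted cells. Nothing in the sources ties the 2 arrays of a group to different animals, and every p-value therefore reflects the spread of these arrays alone, which could be technical.

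Fast release depends on a SNARE complex formed by a vesicle protein, synaptobrevin (Vamp), and the plasma membrane proteins syntaxin and SNAP-25. Synaptotagmins sense calcium, complexins clamp and promote fusion, syntaxin binding proteins hold and guide syntaxins, synapsins tether vesicles to actin and to each other, and Rab3 with RIM organises vesicles at the active zone. Midbrain dopaminergic (mDA) neurons release dopamine from axons and also from their cell bodies and dendrites, and some of them release glutamate or GABA as well. Other syntaxins and Vamp proteins act in traffic through the Golgi, endosomes and lysosomes of all cells.

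Ventral SNc neurons depend on Pitx3 and are missing from the SNc of newborn knockout mice, whereas the VTA of these pups still holds its Pitx3-expressing neurons, as the study describes. A difference between SNc KO and SNc WT therefore compares unlike mixtures of cells, and fewer cells of a type and less RNA per cell cannot be told apart in such pools. Pitx3 itself had a log2 signal of 7.72 and 7.63 in SNc WT, 7.87 and 7.94 in SNc KO, 8.10 and 7.84 in VTA WT and 8.08 and 7.92 in VTA KO. It was not lower on the arrays labelled knockout, but the sources used here give neither the deleted part nor the part that the probeset reads, and the level thus checks nothing. The mean log2 signal of 10 mDA markers lay at 9.41 to 9.46 in SNc WT, 8.76 to 8.89 in SNc KO, 9.29 to 9.31 in VTA WT and 8.90 to 8.93 in VTA KO. The arrays had median log2 signals of 6.11 to 6.24. The VTA KO pair stood furthest apart, with a root mean square SD of 0.38 over all probesets tested against 0.24 to 0.25 in the other groups, and of 0.24 against 0.14 to 0.18 over the members.

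The 250 bases before the transcription start of the 4 members that lead the knockout comparison of SNc in the synapsin, syntaxin binding and complexin families are shown first, since Syn2 and Stxbp5l had higher means and both complexins lower means in SNc KO. They were chosen with those values known. The sequences are from RefSeq (GRCm38.p6), run 5′ to 3′ on the gene's strand, and carry in capitals the matches to 3 motifs searched on both strands, TAATCC (the bicoid type bound by Pitx factors), TGACGTCA (the cAMP response element) and GCGNGGGCG (the Egr1 type).
Syn2, chr6:115134652-115134901, plus strand: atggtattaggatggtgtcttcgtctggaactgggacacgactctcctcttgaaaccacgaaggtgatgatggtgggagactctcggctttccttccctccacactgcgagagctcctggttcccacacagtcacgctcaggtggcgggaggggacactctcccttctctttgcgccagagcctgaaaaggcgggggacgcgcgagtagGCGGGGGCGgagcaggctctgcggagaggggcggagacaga
Stxbp5l, chr16:37384959-37385208, minus strand: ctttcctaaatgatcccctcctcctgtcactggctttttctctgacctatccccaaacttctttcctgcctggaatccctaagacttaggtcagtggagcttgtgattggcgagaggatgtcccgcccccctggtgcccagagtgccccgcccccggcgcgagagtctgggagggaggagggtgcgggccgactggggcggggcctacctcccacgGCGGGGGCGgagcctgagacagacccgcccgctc
Cplx1, chr5:108550028-108550277, minus strand: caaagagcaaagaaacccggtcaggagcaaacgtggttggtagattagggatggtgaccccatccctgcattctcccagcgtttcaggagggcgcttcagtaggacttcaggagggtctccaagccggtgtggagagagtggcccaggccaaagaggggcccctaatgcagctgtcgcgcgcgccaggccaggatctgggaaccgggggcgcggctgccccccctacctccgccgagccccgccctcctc
Cplx2, chr13:54302306-54302555, plus strand: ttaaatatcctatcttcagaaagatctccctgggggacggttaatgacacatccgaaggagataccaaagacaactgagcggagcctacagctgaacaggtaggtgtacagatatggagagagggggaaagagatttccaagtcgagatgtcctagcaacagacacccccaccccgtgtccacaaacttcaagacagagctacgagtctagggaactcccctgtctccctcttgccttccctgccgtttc
The Syn2 and Stxbp5l windows each held 1 Egr1-type match, ending 33 and 26 bases before the start, and the windows of Cplx1 and Cplx2 held none of the 3 motifs. Among all 32851 windows of this length, 4.7% held the Egr1 type, 6.25% the bicoid type and 1.55% the cAMP response element. Among 65 windows of 49 member genes, 5 held the Egr1 type, 3 the bicoid type and 2 the cAMP response element. GC content was 61.2% for Syn2, 64.8% for both Stxbp5l and Cplx1, and 50.8% for Cplx2.

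Most members were measurable. A mean signal of at least 60 (5.91 on the log2 scale) in at least 1 group was required for testing, and 59 of the 63 probesets reached it, 53 of them in every group. Cplx3, Cplx4, Rab3d and Stx19 did not. Stx2, Stx11, Syt2, Syt12, Vamp8 and the second Stxbp4 probeset reached it in only some groups. Adjusted p-values here are from limma with Benjamini-Hochberg adjustment over all 22112 probesets tested, and an adjusted p under 0.05 is meant by a call. Syn2 was the single member called for any difference among the 4 groups, where 0.737% of all probesets were called. In that F test 13 of the 59 members had an unadjusted p under 0.05, 22.0% against 19.4% of all probesets. No member was called in any of the 4 pairwise comparisons.

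**Figure D1:**
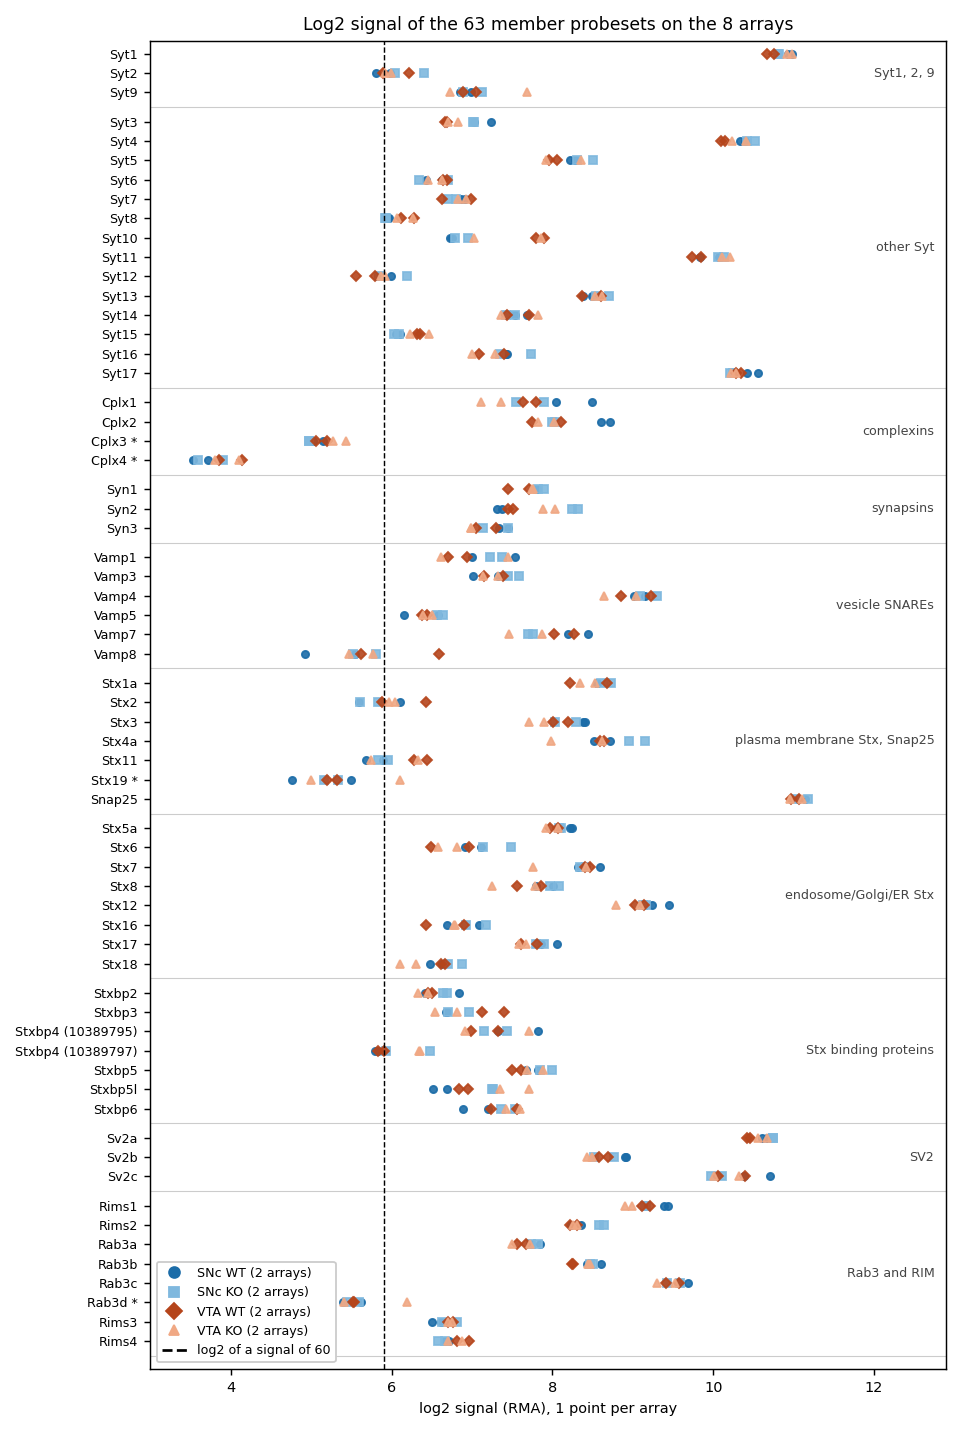
Log2 signal (RMA) of each of the 63 member probesets, 1 row per probeset, with 1 point per array and a colour and marker per group of 2 arrays. The dashed line is the log2 of a signal of 60, asterisks mark the 4 probesets not tested, and levels are to be compared along a row, not between rows. In the row of Syn2 the 4 KO points, at 7.89 to 8.32, lie above the 4 WT points, at 7.31 to 7.52.

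Between the wild-type regions, 0 of 59 members were called in SNc WT against VTA WT, where 0.439% of all probesets were, and 10 had an unadjusted p under 0.05 (6 higher and 4 lower in SNc), 16.9% of the members against 18.8% of all probesets. At the thresholds of the study (unadjusted p of at most 0.05, fold of at least 1.5 and signal of at least 60, here with limma's p), Cplx2 was higher and Syt10 and Vamp8 were lower in SNc, 3 of 59 where 6.62% of all probesets passed. Vamp8 and Stx11, both among the 4 lower, reached the signal minimum only through VTA groups, where they were higher, so that their places in these counts rest on that minimum. The median log2 difference over the members was 0.14, with 38 of 59 positive, against 0.01 over all probesets. The 12 general neuron markers moved the same way, with a median of 0.20 and 12 of 12 positive, and their mean log2 signal was 10.02 to 10.08 in SNc WT and 9.73 to 9.76 in VTA WT. Their part in the shift of the members was not tested.

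In SNc KO against SNc WT, 0 of 59 members were called where 0.149% of all probesets were, and 9 had an unadjusted p under 0.05 (3 higher and 6 lower in KO), 15.3% against 8.62%. Syn2 and Stxbp5l were higher and Cplx2 and Vamp7 lower at the thresholds of the study, 4 members where 3.6% of all probesets passed. In VTA KO against VTA WT, 0 members were called (0.00904% of all probesets), 7 had an unadjusted p under 0.05, 11.9% against 10.2%, and Stxbp5l alone passed the thresholds of the study (4.35% of all probesets). The log2 difference of Stxbp5l there was 0.64, which was 0.46 without the first VTA KO array and 0.82 without the second. The median log2 differences over the members were 0.06 in SNc and -0.02 in VTA, against 0.01 and -0.02 over all probesets. The difference between the knockout effects of the regions was called for 0 members (0% of all probesets) and had an unadjusted p under 0.05 for 6 of them, 10.2% against 9.89%.

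Between the knockout regions, SNc KO against VTA KO, 0 of 59 members were called (0.149% of all probesets) and 8 had an unadjusted p under 0.05, 13.6% against 17.5%, of which 7 were higher in SNc. Stx4a, Stx6 and Stx18 passed the thresholds of the study (6.96% of all probesets). With both genotypes averaged, SNc against VTA, 0 members were called (1.56% of all probesets), and 19 had an unadjusted p under 0.05 (14 higher and 5 lower in SNc), 32.2% against 26.8%. The median log2 difference over the members was then 0.15, with 43 of 59 positive, against 0.02 over all probesets. These comparisons share arrays and are given side by side only.

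**Figure D2:**
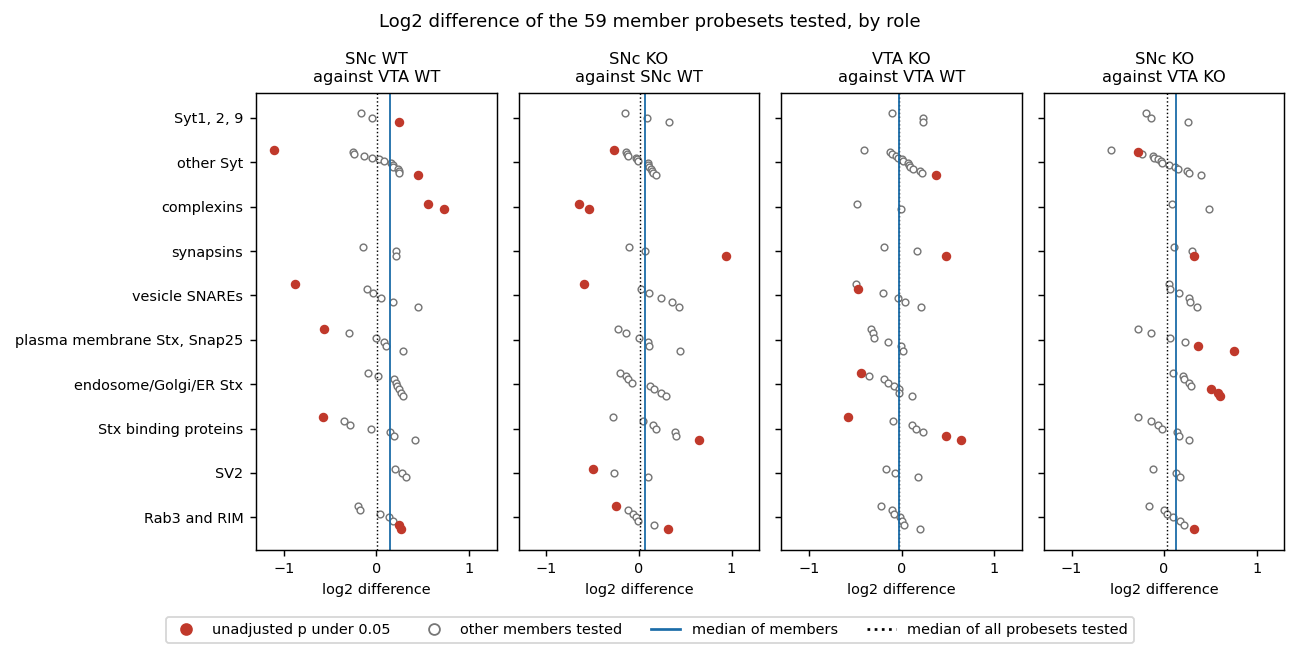
Log2 difference (horizontal axis) of the 59 tested member probesets in the 4 pairwise comparisons, by role (rows), 1 point per probeset. Filled points have an unadjusted p under 0.05, the solid line is the median of the members and the dotted line that of all 22112 probesets. Syt10 lies at -1.11 in the first panel and Syn2 at 0.94 in the second, the farthest points from 0.

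Of the synapsins, phosphoproteins that hold vesicles in the reserve pool, Syn2 differed among the 4 groups and Syn1 and Syn3 were not called. The log2 signal of Syn2 was 7.31 and 7.37 in SNc WT, 8.32 and 8.24 in SNc KO, 7.45 and 7.52 in VTA WT, and 7.89 and 8.03 in VTA KO (F test, limma, adjusted p = 0.0468). All KO arrays lay above all WT arrays, and the SNc KO arrays above the VTA KO arrays. The log2 difference was 0.94 (SE 0.11, 1.92-fold, limma adjusted p = 0.0537) in SNc KO against SNc WT and 0.48 (SE 0.11, 1.39-fold, adjusted p = 0.250) in VTA KO against VTA WT. These effects differed by 0.47 (SE 0.15, limma adjusted p = 0.451), which did not pass the test. The call for Syn2 was lost without each of the SNc WT, SNc KO and VTA WT arrays in turn (adjusted p = 0.155 to 0.196), where 0% of all probesets were called, and was kept without either VTA KO array, where 1.45% and 3.14% were.

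Syn1, the X-linked synapsin, had log2 signals of 7.80 and 7.78 in SNc WT, 7.89 and 7.82 in SNc KO, 7.45 and 7.71 in VTA WT and 7.75 and 7.76 in VTA KO. Syn3, the synapsin known for its early expression in developing neurons, ranged from 6.99 to 7.45, and its mean over both genotypes was 0.26 (SE 0.10) higher in SNc on the log2 scale (limma adjusted p = 0.177). Timp4, a metalloproteinase inhibitor gene that lies within the Syn2 locus and has a probeset of its own, had log2 signals of 5.85 and 6.09 in SNc WT, 6.62 and 6.51 in SNc KO, 6.96 and 7.0 in VTA WT and 6.92 and 6.64 in VTA KO. Like Syn2, it was higher on the SNc KO than on the SNc WT arrays, by 0.60 (SE 0.14, limma adjusted p = 0.294) on the log2 scale, while in VTA its knockout mean differed by -0.21 (SE 0.14, adjusted p = 0.671), with both wild-type arrays above both knockout arrays. Over both genotypes Timp4 was called as lower in SNc, with a log2 difference of -0.61 (SE 0.10, limma adjusted p = 0.0486), where 1.56% of all probesets were called. SNc WT differed from VTA WT by -1.01 (SE 0.14, limma adjusted p = 0.0511). The part of Timp4 in the Syn2 signal was not tested.

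Marker lists also differed between SNc WT and SNc KO, some up as Syn2 did and 1 down. The mean log2 signal of the mDA markers, given above, was lower in SNc KO, with 2 of 10 called (Aldh1a1 and Drd2). That of the 7 GABAergic neuron probesets, 2 of them under a signal of 60 in every group, was 6.76 to 6.84 in SNc WT and 7.02 to 7.29 in SNc KO, with 6.67 to 6.68 in VTA WT and 6.80 to 7.0 in VTA KO. That of the 9 pericyte and smooth muscle probesets, all over 60 in some group, was 6.20 to 6.32 in SNc WT and 7.02 to 7.10 in SNc KO, with 7.09 to 7.41 in VTA WT and 6.03 to 7.38 in VTA KO. The 3 glutamatergic neuron probesets, 1 of them under 60 in every group, also had a higher mean in SNc KO. It was 6.55 to 6.74 in SNc WT and 7.21 to 7.27 in SNc KO, with 7.15 to 7.22 in VTA WT and 7.14 to 7.36 in VTA KO. The part of these lists in the Syn2 result was not tested.

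Of the complexins, small proteins that bind the assembled SNARE complex, both measurable members had their highest mean in SNc WT. Cplx2 had log2 signals of 8.72 and 8.60 in SNc WT, 8.00 and 8.03 in SNc KO, 8.11 and 7.74 in VTA WT, and 7.83 and 8.03 in VTA KO. The SNc WT arrays stood above the other 6 arrays, which overlapped among themselves. SNc WT exceeded VTA WT by 0.73 (SE 0.15, 1.66-fold, limma adjusted p = 0.106) and SNc KO differed from SNc WT by -0.65 (SE 0.15, adjusted p = 0.297), whereas in VTA the knockout mean equalled the wild-type mean of 7.93. The knockout effects of the regions differed by -0.65 (SE 0.22, limma adjusted p = 0.467).

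Cplx1 had log2 signals of 8.49 and 8.04 in SNc WT, 7.55 and 7.90 in SNc KO, 7.63 and 7.80 in VTA WT, and 7.36 and 7.11 in VTA KO. The SNc WT arrays were the highest and the VTA KO arrays the lowest, with the SNc KO and VTA WT arrays overlapping between them. The wild-type regions differed by 0.55 (SE 0.20, limma adjusted p = 0.227) and the SNc genotypes by -0.54 (SE 0.20, adjusted p = 0.533). These values were 0.33 and -0.32 without the first SNc WT array. With both genotypes averaged, the SNc mean was higher by 0.52 (SE 0.14, adjusted p = 0.101). Cplx3 and Cplx4, complexins known from ribbon synapses of the retina, stayed at 4.97 to 5.44 and 3.53 to 4.15, under the signal of 60 on every array.

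Among the synaptotagmins, Syt1, the main calcium sensor of fast release, had log2 signals of 10.98 and 10.93 in SNc WT, 10.82 and 10.80 in SNc KO, 10.76 and 10.67 in VTA WT, and 10.92 and 10.98 in VTA KO. SNc WT exceeded VTA WT by 0.25 (SE 0.10, limma adjusted p = 0.257). The knockout mean was lower than the wild-type mean in SNc and higher in VTA, and the effects differed by -0.38 (SE 0.14, limma adjusted p = 0.473). Syt9, a fast calcium sensor of some limbic and striatal neurons, ranged from 6.73 to 7.68, both extremes being the VTA KO arrays. Syt2, the sensor of fast hindbrain and spinal synapses, ranged from 5.81 to 6.40 and was under the signal minimum in SNc WT.

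Syt10, a synaptotagmin known for calcium-triggered secretion of IGF-1, separated the wild-type regions. Its log2 signal was 6.75 and 6.72 in SNc WT, 6.78 and 6.94 in SNc KO, 7.89 and 7.79 in VTA WT, and 7.86 and 7.02 in VTA KO. All VTA arrays lay above all SNc arrays, and the VTA KO arrays lay further apart than those of any other group. The log2 difference was -1.11 (SE 0.26, 2.15-fold, limma adjusted p = 0.118) in SNc WT against VTA WT and -0.84 (SE 0.18, adjusted p = 0.0719) over both genotypes. The first was called from the 2 groups alone (limma adjusted p = 0.0345). It was also called without either VTA KO array, where its size stayed the same and a larger share of all probesets was called.

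Markers of motile ciliated cells were high on the same arrays. Over 71 probesets of 14 such genes, 21 of them under a signal of 60 in every group, the mean log2 signal was 4.91 to 5.04 in SNc WT, 4.94 to 4.96 in SNc KO, 6.32 to 6.61 in VTA WT, and 6.25 and 5.44 on the first and second VTA KO arrays. Over 10 probesets of astrocyte and radial glia genes, 2 of them under 60 in every group, it was 6.55 to 6.61 in SNc WT, 6.65 to 6.77 in SNc KO, 7.25 to 7.43 in VTA WT, and 7.12 and 6.68 on the VTA KO arrays. Their part in the levels of Syt10, and in those of Vamp8 and Stx11 below, was not tested.

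The other synaptotagmins differed less. Syt3, which has a high calcium affinity, had log2 signals of 7.23 and 7.02 in SNc WT, 7.02 and 7.01 in SNc KO, 6.69 and 6.66 in VTA WT, and 6.83 and 6.70 in VTA KO. All SNc arrays lay above all VTA arrays, with a log2 difference of 0.45 (SE 0.12, limma adjusted p = 0.137) in the wild type and 0.35 (SE 0.08, adjusted p = 0.0808) over both genotypes. Syt4, a synaptotagmin of dense core vesicles, ranged from 10.09 to 10.52 and was 0.20 (SE 0.08, adjusted p = 0.176) higher in SNc over both genotypes. Syt8 and Syt15 were lower in SNc over both genotypes, by log2 differences of -0.24 (SE 0.08, adjusted p = 0.147) and -0.27 (SE 0.08, adjusted p = 0.120). Between the knockout groups Syt15 differed by -0.29 (SE 0.12, adjusted p = 0.281), -0.17 without the first VTA KO array.

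Syt11, which lacks calcium binding and acts in membrane traffic of dopaminergic neurons, had log2 signals of 9.85 and 9.73 in VTA WT and 10.11 and 10.21 in VTA KO, a log2 difference of 0.37 (SE 0.12, limma adjusted p = 0.380). In SNc it ranged from 9.84 to 10.13, and the genotypes overlapped. Syt17, a Golgi and endosome synaptotagmin, had log2 signals of 10.56 and 10.43 in SNc WT and 10.21 and 10.24 in SNc KO, a log2 difference of -0.27 (SE 0.10, adjusted p = 0.546). Its VTA arrays, at 10.23 to 10.35, lay below SNc WT. Syt5, Syt6, Syt7, Syt12, Syt13, Syt14 and Syt16 had no unadjusted p under 0.05 in any comparison.

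Vamp7, the vesicle SNARE of late endosomes, lysosomes and neurite outgrowth, had lower means in both knockout groups. Its log2 signal was 8.20 and 8.44 in SNc WT, 7.70 and 7.76 in SNc KO, 8.26 and 8.02 in VTA WT, and 7.47 and 7.87 in VTA KO. All WT arrays lay above all KO arrays. Knockout differed from wild type by -0.59 (SE 0.18, 1.51-fold, limma adjusted p = 0.415) in SNc and -0.47 (SE 0.18, adjusted p = 0.434) in VTA, the latter -0.27 without the first VTA KO array.

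Vamp8, a SNARE of lysosomal fusion and of secretion outside neurons, had log2 signals of 4.92 and 5.54 in SNc WT, 5.52 and 5.81 in SNc KO, 6.59 and 5.62 in VTA WT, and 5.77 and 5.47 in VTA KO. A single array, the first of VTA WT, was over the signal of 60, and the other 7 overlapped between groups. The log2 difference of -0.88 (SE 0.35, limma adjusted p = 0.257) in SNc WT against VTA WT was -1.36 without the second VTA WT array and -0.56 without the first SNc WT array. Without the first VTA WT array it was -0.39, and Vamp8 was then under the minimum in every group and not tested. Vamp4, a trans-Golgi SNARE, ranged from 8.64 to 9.30, and neither it nor Vamp1, Vamp3 or Vamp5 had an unadjusted p under 0.05 in any comparison.

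Snap25 and Stx1a, the plasma membrane SNAREs of fast release, differed little between the groups. Snap25 had log2 signals of 11.14 and 11.06 in SNc WT, 11.02 and 11.18 in SNc KO, 11.07 and 10.97 in VTA WT, and 10.96 and 11.10 in VTA KO. Stx1a had log2 signals of 8.55 and 8.55 in SNc WT, 8.60 and 8.72 in SNc KO, 8.68 and 8.22 in VTA WT, and 8.35 and 8.54 in VTA KO. The regions overlapped for both genes, within each genotype for Snap25 and in the wild type for Stx1a, and neither had an unadjusted p under 0.05 in any comparison.

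Stx4a (syntaxin-4), a plasma membrane syntaxin of regulated secretion and dendritic exocytosis, had log2 signals of 8.71 and 8.52 in SNc WT, 9.15 and 8.96 in SNc KO, 8.64 and 8.60 in VTA WT, and 7.99 and 8.62 in VTA KO. The SNc KO arrays were the highest of the 8. The log2 difference in SNc KO against VTA KO was 0.75 (SE 0.22, 1.68-fold, limma adjusted p = 0.197), 0.43 without the first VTA KO array and 1.07 (called, adjusted p = 0.0322) without the second. The knockout effects of the regions differed by 0.75 (SE 0.30, limma adjusted p = 0.499).

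Stx3, a syntaxin of the growing axon and of postsynaptic membrane insertion, had log2 signals of 8.40 and 8.38 in SNc WT, 8.03 and 8.29 in SNc KO, 8.19 and 8.01 in VTA WT, and 7.71 and 7.90 in VTA KO. Its mean was higher in SNc over both genotypes by 0.32 (SE 0.10, limma adjusted p = 0.119), and by 0.36 (SE 0.14, adjusted p = 0.264) between the knockout groups, 0.23 without the second SNc KO array. Stx11, a syntaxin of immune cells, had log2 signals of 5.89 and 5.69 in SNc WT, 5.96 and 5.83 in SNc KO, 6.28 and 6.44 in VTA WT, and 6.32 and 5.74 in VTA KO. It passed the signal minimum through the VTA groups alone, where it was higher, and the SNc levels, under that minimum, give the difference no firm size.

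The 8 syntaxins of endosomes, Golgi and endoplasmic reticulum all had higher means in SNc KO than in VTA KO, with a median log2 difference of 0.28, against 0.04 over all probesets, and 0 of 8 were called. The wild-type regions differed alike, with 7 of 8 higher in SNc WT and a median of 0.22, against 0.01 over all probesets. Over both genotypes 8 of 8 were higher in SNc, with a median of 0.24 against 0.02. Means were higher in SNc KO for 54.8% of all probesets, and also for 6 of 6 vesicle SNAREs, 21 of 22 other SNARE partners and 10 of 12 general neuron markers (median 0.14). The part of such a wider shift in the syntaxins was not tested. Stx18, a syntaxin of the endoplasmic reticulum, had log2 signals of 6.63 and 6.48 in SNc WT, 6.70 and 6.88 in SNc KO, 6.66 and 6.62 in VTA WT, and 6.30 and 6.10 in VTA KO. The VTA KO arrays were the lowest of the 8. The knockout regions differed by 0.59 (SE 0.13, 1.5-fold, limma adjusted p = 0.156) and the VTA genotypes by -0.44 (SE 0.13, adjusted p = 0.331). The knockout effects differed by 0.67 (SE 0.18, limma adjusted p = 0.388).

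Stx6, a trans-Golgi syntaxin, had log2 signals of 7.11 and 6.91 in SNc WT, 7.48 and 7.14 in SNc KO, 6.49 and 6.96 in VTA WT, and 6.58 and 6.82 in VTA KO. SNc KO lay above VTA KO by 0.61 (SE 0.21, 1.52-fold, limma adjusted p = 0.231), and the wild-type regions overlapped. Stx8, a late endosome syntaxin, had log2 signals of 7.97 and 8.09 in SNc KO and 7.78 and 7.25 in VTA KO, a log2 difference of 0.51 (SE 0.21, adjusted p = 0.274) that was 0.78 and 0.24 without the first and second VTA KO array. Stx17, the syntaxin of autophagosomes, was 0.23 (SE 0.09, adjusted p = 0.168) higher in SNc over both genotypes. Stx5a, Stx7, Stx12 and Stx16, which serve the Golgi and endosomes, had unadjusted p-values of 0.05 or more in each comparison, with log2 signals of 7.92 to 8.25, 7.76 to 8.60, 8.79 to 9.45 and 6.43 to 7.18.

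Of the syntaxin binding proteins, Stxbp5l (tomosyn-2), which competes with synaptobrevin for syntaxin and SNAP-25 and lowers release, had higher means in both knockout groups. Its log2 signal was 6.52 and 6.69 in SNc WT, 7.26 and 7.24 in SNc KO, 6.95 and 6.84 in VTA WT, and 7.71 and 7.35 in VTA KO. All KO arrays lay above all WT arrays, and within each genotype the VTA arrays lay above the SNc arrays. The log2 difference was 0.65 (SE 0.15, 1.57-fold, limma adjusted p = 0.281) in SNc and 0.64 (SE 0.15, 1.56-fold, adjusted p = 0.252) in VTA. Its paralogue Stxbp5 (tomosyn-1) ranged from 7.50 to 8.00, with no unadjusted p under 0.05 in any comparison.

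Stxbp3 (Munc18c), the partner of syntaxin-4, had log2 signals of 6.67 and 6.69 in SNc WT, 6.70 and 6.97 in SNc KO, 7.12 and 7.39 in VTA WT, and 6.54 and 6.81 in VTA KO. The VTA WT arrays were the highest, and the VTA KO arrays overlapped each of the SNc groups. The wild-type regions differed by -0.58 (SE 0.16, 1.49-fold, limma adjusted p = 0.152) and the VTA genotypes by -0.58 (SE 0.16, adjusted p = 0.306). The knockout effects differed by 0.74 (SE 0.23, limma adjusted p = 0.429).

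The probesets of Stxbp4, a binding partner of syntaxin-4 known from insulin-regulated traffic, disagreed. One had log2 signals of 5.90 and 5.83 in VTA WT and 6.36 and 6.34 in VTA KO, and it passed the signal minimum only through the knockout groups, where it was higher. The other had 7.33 and 6.99 in VTA WT and 7.71 and 6.91 in VTA KO, with the genotypes overlapping. Stxbp2 (Munc18b) ranged from 6.33 to 6.83 and Stxbp6 (amisyn) from 6.89 to 7.59, with no unadjusted p under 0.05.

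The SV2 proteins are transporter-like glycoproteins of the vesicle membrane, and Sv2c is the form known from the basal ganglia and dopaminergic neurons. Sv2c had log2 signals of 10.71 and 10.38 in SNc WT, 9.97 and 10.11 in SNc KO, 10.40 and 10.06 in VTA WT, and 10.32 and 10.004 in VTA KO. The SNc genotypes did not overlap, the VTA genotypes did, and the log2 difference in SNc KO against SNc WT was -0.50 (SE 0.19, 1.42-fold, limma adjusted p = 0.533). Sv2a ranged from 10.42 to 10.74. Sv2b had 8.92 and 8.90 in SNc WT, 8.76 and 8.51 in SNc KO, 8.69 and 8.57 in VTA WT, and 8.43 and 8.49 in VTA KO, a mean 0.23 (SE 0.09, adjusted p = 0.166) higher in SNc over both genotypes.

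Rims1 and Rims2, active zone scaffolds that bind Rab3, were not called in any comparison. Rims1 had log2 signals of 9.44 and 9.38 in SNc WT, 9.17 and 9.16 in SNc KO, 9.12 and 9.21 in VTA WT, and 8.99 and 8.91 in VTA KO. Its SNc WT arrays were the highest, with a log2 difference of 0.25 (SE 0.10, limma adjusted p = 0.260) from VTA WT, 0.14 after quantile normalisation, and of -0.25 (SE 0.10, adjusted p = 0.562) in SNc KO against SNc WT. Rims2 had log2 signals of 8.23 and 8.36 in SNc WT, 8.59 and 8.64 in SNc KO, 8.30 and 8.22 in VTA WT, and 8.31 and 8.26 in VTA KO. Its SNc KO arrays were the highest, 0.32 (SE 0.10, adjusted p = 0.462) above SNc WT and 0.33 (SE 0.10, adjusted p = 0.212) above VTA KO.

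The Rab3 GTPases, which bind vesicles to RIM, changed little. Rab3b, a form known to be rich in SNc and VTA neurons, had log2 signals of 8.43 and 8.60 in SNc WT, 8.47 and 8.50 in SNc KO, 8.25 and 8.25 in VTA WT, and 8.44 and 8.47 in VTA KO, with VTA WT the lowest. The wild-type SNc mean was 0.27 (SE 0.11, limma adjusted p = 0.252) above the VTA mean, 0.15 after quantile normalisation. Rab3a ranged from 7.50 to 7.84 and Rab3c from 9.30 to 9.69, and the short RIM forms Rims3 and Rims4 from 6.51 to 6.81 and 6.58 to 6.96, with no unadjusted p under 0.05.

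**Figure D3:**
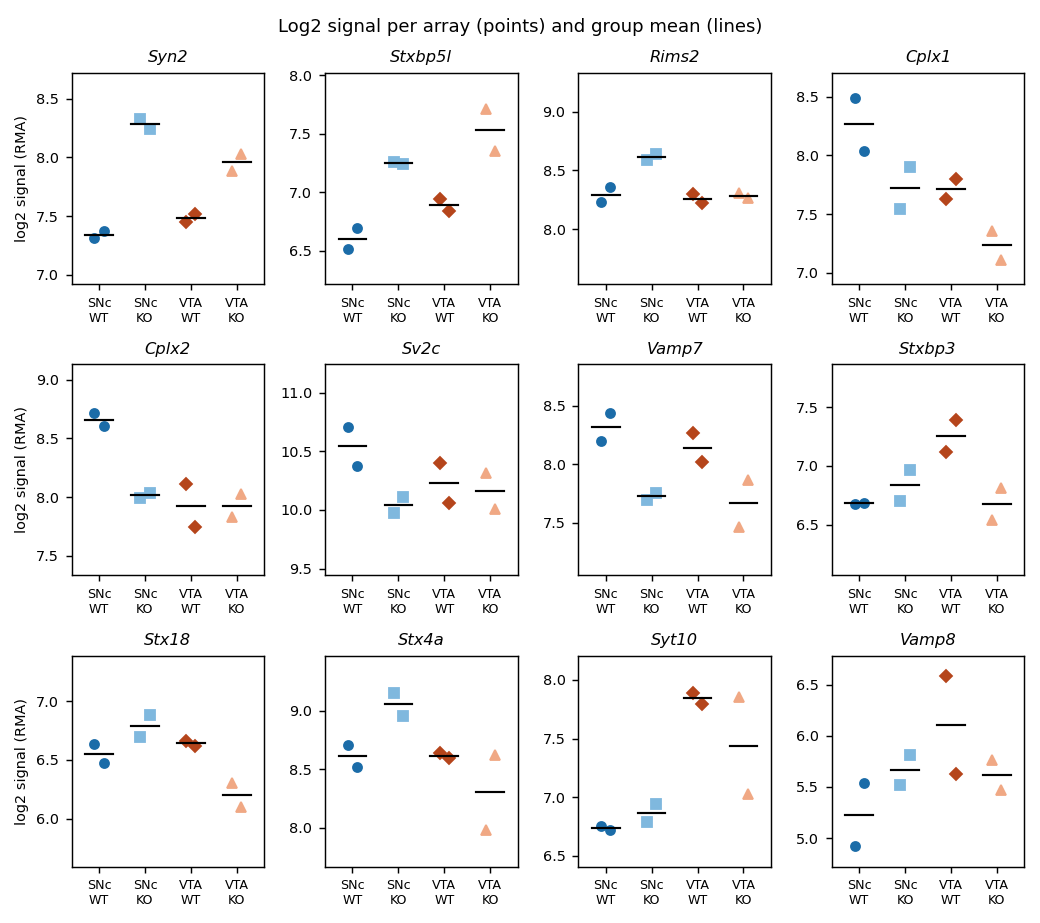
Log2 signal (RMA, vertical axis, each panel with its own scale) of 12 members on the 2 arrays of each group, as points, with the group mean as a line. Syn2 and Stxbp5l are higher and Vamp7 is lower on all KO arrays than on all WT arrays, and the complexins are highest in SNc WT.

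Other genes of the vesicle cycle were read from a list of 126 genes for endocytosis, priming and the active zone, vesicle membrane proteins and SNARE partners, of which 120 were measured and 126 probesets tested. In any comparison 3 of them were called, Sytl5, Synpr and Slc32a1, where 1.85% of all probesets were. The number with an unadjusted p under 0.05 was 26 of 126 in SNc WT against VTA WT (20.6%, against 18.8% of all probesets), 15 between the SNc genotypes (11.9% against 8.62%), 16 between the VTA genotypes (12.70% against 10.2%) and 22 between the knockout regions (17.5% for both). Their median log2 difference in SNc WT against VTA WT was 0.16, with 92 of 126 positive, against 0.01 over all probesets.

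Sytl5, a synaptotagmin-like Rab27 effector, had log2 signals of 6.53 and 6.36 in SNc WT, 7.38 and 7.50 in SNc KO, 5.92 and 5.69 in VTA WT, and 5.85 and 6.29 in VTA KO at its called probeset. SNc was higher over both genotypes by 1.003 (SE 0.13, 2.004-fold, limma adjusted p = 0.0314), and SNc KO was the highest group. The VTA WT mean of 5.80 lay under the signal minimum, so that fold has no firm size. The other Sytl5 probeset differed by 0.55 (SE 0.10, adjusted p = 0.0580) and was not called. It passed the minimum only through SNc KO, where it was highest. Synpr (synaptoporin), a synaptophysin relative, had log2 signals of 6.95 and 7.04 in SNc WT, 7.72 and 7.87 in SNc KO, 6.78 and 6.77 in VTA WT, and 7.08 and 7.07 in VTA KO. It was higher in SNc over both genotypes by 0.47 (SE 0.07, adjusted p = 0.0470). Slc32a1, the vesicular GABA transporter, had log2 signals of 8.16 and 8.27 in SNc WT, 9.08 and 9.23 in SNc KO, 8.18 and 8.14 in VTA WT, and 8.99 and 8.80 in VTA KO. All its KO arrays lay above all WT arrays (F test, limma adjusted p = 0.0459), as for Syn2. Without each of the SNc WT, SNc KO and VTA WT arrays in turn, 0 of the 126 probesets were called, and 22 were without the second VTA KO array, where 15.5% of all probesets were called in some comparison.

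None of these genes passed the adjusted threshold in a pairwise comparison. Sytl5 differed in SNc KO against VTA KO by 1.37 (SE 0.18, limma adjusted p = 0.0700) at its called probeset and 0.93 (SE 0.14, adjusted p = 0.107) at the other. Slc17a6, the vesicular glutamate transporter VGLUT2, had log2 signals of 9.06 and 8.78 in SNc WT, 10.04 and 9.96 in SNc KO, 9.68 and 9.90 in VTA WT, and 10.12 and 9.94 in VTA KO. SNc WT was the lowest group, by -0.87 (SE 0.15, limma adjusted p = 0.0747) against VTA WT, and SNc KO exceeded it by 1.08 (SE 0.15, adjusted p = 0.0811). Erc1, an active zone scaffold, differed between SNc WT and VTA WT by 1.08 (SE 0.31, adjusted p = 0.158), 0.74 (SE 0.16, adjusted p = 0.107) and 0.35 (SE 0.11, adjusted p = 0.178) at its 3 probesets. Unc13c (Munc13-3), a priming factor known from cerebellum, had a log2 difference of 1.09 (SE 0.20, adjusted p = 0.175) in SNc KO against SNc WT at 1 of its 6 tested probesets, while another differed by -0.97. The latter had no unadjusted p under 0.05, and its SNc KO mean of 5.86 lay under the signal minimum, so that it has no firm size. Dnajc6 (auxilin), which uncoats clathrin vesicles, had one of -0.38 (SE 0.11, adjusted p = 0.374). Bet1, a Golgi SNARE, differed by -0.93 (SE 0.18, adjusted p = 0.195) in VTA KO against VTA WT, with a VTA KO mean of 5.37. Slc18a3, the vesicular acetylcholine transporter, differed by -0.85 (SE 0.15, adjusted p = 0.121) in SNc KO against VTA KO, with an SNc KO mean of 5.71. It passed the signal minimum only through the VTA groups, where it was higher. The lower means of Bet1 and Slc18a3 lay under that minimum and give the differences no firm size.

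**Figure D4:**
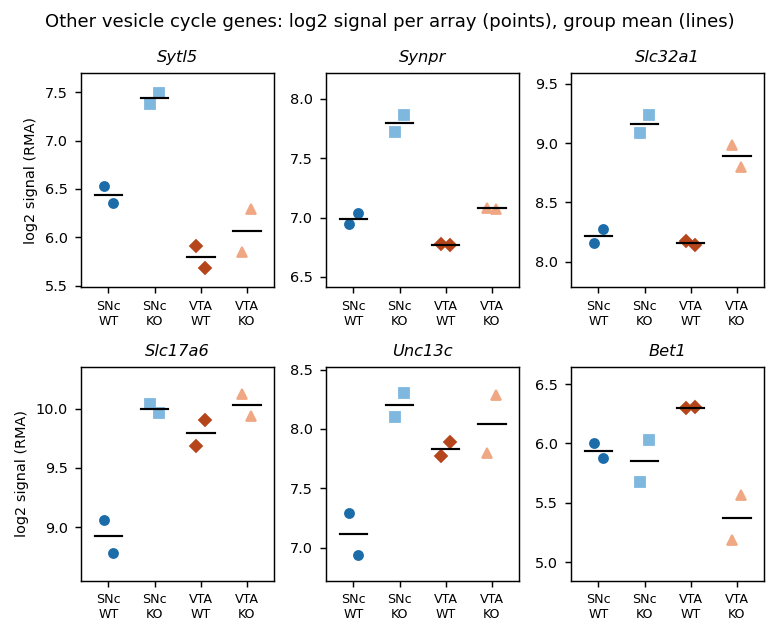
Log2 signal (RMA, vertical axis, each panel with its own scale) of 6 other genes of the vesicle cycle on the 2 arrays of each group, as points, with the group mean as a line. Slc32a1 is higher on the 4 KO arrays, at 8.80 to 9.23, than on the 4 WT arrays, at 8.14 to 8.27, and Slc17a6 is lowest in SNc WT.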

How the data were processed

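EGFP-positive cells of 4 groups were profiled in duplicate on Affymetrix Mouse Gene 1.0 ST arrays after linear amplification of total RNA. The deposited values are RMA expression values on the log2 scale, which the authors background-corrected, normalised across arrays and summarised per probeset. Which genome build and software version were used is not given in the sources used here. Array scans were not used, and the number of arrays limits the precision. Probesets were named from GEO's platform annotation, where 21789 had 1 symbol, 1621 several and 12102 none. All 62 member symbols were found in RefSeq's gene table, with 0 changed.

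One model with a mean for each group was fitted to all 8 arrays by limma 3.58.1 (R 4.3.3) with empirical Bayes moderation (4 residual and 2.4 prior degrees of freedom). Probesets needed a group mean of at least 60 in at least 1 group. The LPE test named in the methods was not run. The code was tested on simulated data. The labels give no batch. The rule for the members uses no measured value, but it, the gene lists and the motifs were chosen with earlier results of these data known. Named were members with an adjusted p under 0.05 or at the thresholds of the study, the 5 largest rises and falls per pairwise comparison at an unadjusted p under 0.05, the 2 of highest mean per role, a core of release genes, and other genes called or with the largest rise or fall. Alternatives were no signal filter, quantile normalisation, median subtraction, a replicate block, a variance trend, the 2 groups alone, the probeset of highest mean, and each array left out. Those for the other vesicle genes were added after seeing the data. Timp4, Stx16 and further members outside this rule were named after their values were seen.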

Additional observations from a re-analysis of the deposited data

How the results depend on the processing

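All 40 named differences kept their sign under each of up to 14 alternatives. They had been named for their size or p-value in these data. Dropping the signal filter, a replicate block, a variance trend and the 2 groups alone leave a difference itself unchanged. So does leaving out an array of a group not compared. The sign could thus move only with the normalisation or without an array of the compared groups. The call of Syn2 among the 4 groups was lost without the signal filter (adjusted p = 0.0891), after median subtraction (0.0541) and with the replicate block (0.0930), which each left 0 members called in that test, and was kept after quantile normalisation and with a variance trend. Median subtraction called 1 member, Syt3, in SNc against VTA, where 3.68% of all probesets were called. The 2 groups alone called 1 member, Syt10, in SNc WT against VTA WT, a fit whose share of all probesets is not given here. Without either VTA KO array the share of all probesets called in that comparison was above that of the main fit. The Syt10 calls there are therefore not read as a result about the members. With arrays left out in turn, where a lone array is assumed to vary like the other groups, members called ranged from 0 to 1 in SNc WT against VTA WT, 0 to 2 between the knockout groups (Syt10 and Stx4a without the second VTA KO array, where 6.17% of all probesets were called), 0 to 5 in SNc against VTA (Syt10, Syt15, Stx4a, Stx11 and Stxbp5l without the second VTA KO array, where 14.3% of all probesets were called) and 0 to 3 among the 4 groups (Syn2, Syt10 and Stxbp5l without it, Syn2 and Syt10 without the first). Members at the thresholds of the study ranged from 2 to 4 between the wild-type regions, 3 to 6 between the SNc genotypes, 1 to 6 between the VTA genotypes and 2 to 5 between the knockout regions. The highest counts between the VTA genotypes and between the knockout regions came without a VTA KO array. No share of all probesets is given beside these ranges, so they are not read as a result about the members. Quantile normalisation gave 2 between the VTA genotypes. Of the other vesicle genes, 0 probesets were called without the signal filter, where 0.329% of all probesets were called in some comparison. With the replicate block 0 were called, against 0.737% of all probesets, and after median subtraction 5, against 3.9%. With an array left out 0 to 22 were called, the most without the second VTA KO array, where 15.5% of all probesets were. These counts are therefore not read as a result about these genes. Deviations of same-numbered arrays correlated at 0.006 to 0.098. Whether the replicate numbers pair the arrays was not tested beyond this. The block changed the counts of calls only as given. With 2 arrays a group, differences far larger than most members' replicate spread were not called. The median SD of the members within a group was 0.10 to 0.13. Syt10 at -1.11 in SNc WT against VTA WT and Syn2 at 0.94 in SNc KO against SNc WT were not called. The absence of a call therefore does not show that a member was unchanged.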

Other observations

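Vamp2, the synaptobrevin of fast release, was read by a probeset that also carries the symbol Ubr3. Its log2 signal was 10.99 and 10.91 in SNc WT, 11.01 and 11.05 in SNc KO, 10.998 and 10.93 in VTA WT, and 11.07 and 11.10 in VTA KO, and no comparison had an unadjusted p under 0.05. A probeset shared by Stxbp3 and its pseudogene Stxbp3-ps had log2 signals of 5.61 and 5.91 in SNc WT, 6.71 and 5.78 in SNc KO, 6.35 and 7.09 in VTA WT, and 6.39 and 6.75 in VTA KO. Its log2 difference in SNc WT against VTA WT was -0.96 (SE 0.37, limma adjusted p = 0.242), of the same sign as that of the Stxbp3 probeset with 1 symbol.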
